A study of Rattus norvegicus with 12 samples.

Results

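Galinex (GAL), an agonist of the G protein-coupled receptor GPR17, was given without cytokines to primary rat oligodendrocyte precursor cells (OPCs), and the comparison with cultures that did not receive it rests on 6 of the 12 RNA sequencing libraries. The 3 GAL libraries came from cells given 10 nM galinex, the 3 CTL libraries from cells without galinex, and RNA was taken 24 h after galinex. The treatment notes give the solvent DMSO in place of galinex for cultures that did not receive it. All cells came from the cortex of wild-type Sprague-Dawley pups of both sexes at P0-P2. They were shaken off a mixed glial culture and were moved to differentiating medium when the treatments began. The other 6 libraries, CTK-2 and CTK2+GAL, also received cytokines (IFN-γ, TNF-α and IL-1β, 2 ng/mL of each) 6 h before galinex, which was given to CTK2+GAL and not to CTK-2. Of 30562 annotated genes, 13348 reached an average of 5 counts per library across the series and were tested, and 1783 of these carried a symbol.

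OPCs divide, leave the cell cycle, pass through a pre-myelinating stage and then make the lipids and proteins of myelin. GPR17 appears in the pre-myelinating stage and is lost from mature oligodendrocytes. It signals through G proteins that lower cyclic AMP and can raise calcium through phospholipase C. Cholesterol and long fatty acids are made in large amounts by differentiating oligodendrocytes, so the genes of both pathways are useful readouts of maturation beside the myelin genes themselves.

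The library totals of the 6 libraries lay between 2600797 counts (GAL replicate 1) and 6169733 counts (CTL replicate 3). OPC markers were plentiful in all 6 libraries, with a summed level of 4158 to 4594 CPM (the count scaled by the TMM-normalized library size, per 1e6) over 7 markers. The 7 microglial markers with a symbol summed to 2.55 to 11.7 CPM, and their highest sums were in CTL 3 (11.7 CPM) and GAL 3 (11.03 CPM). Libraries CTL 3 and GAL 3 stood apart from the rest. The 26 interferon-stimulated genes with a symbol summed to 1484 CPM in CTL 3 and 1435 CPM in GAL 3, against 99.9 to 116 CPM in the other CTL and GAL libraries. Deviations from the group mean, across 9642 genes that averaged 50 counts or more, correlated between CTL and GAL libraries of the same number (r = 0.49, 0.53 and 0.83 for numbers 1, 2 and 3). The agreement rested on number 3, since CTL 1 minus CTL 2 and GAL 1 minus GAL 2 correlated at only r = 0.084. The comparison was therefore made within same-numbered pairs, and the labels do not say what a shared number stands for. The p-values rest on the spread between these pairs, which may be technical. Most of that spread is shared across genes (31.1 prior of 33.1 total degrees of freedom), so a small p is not a measure of 1 gene's own pairs alone.

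Few differences from CTL were detected with galinex alone. No gene passed both thresholds, an adjusted p no higher than 0.05 and a log2 fold change of 0.59 or more in either direction, which is 1.5-fold (0 of 13348 genes, 0%, Benjamini-Hochberg adjustment of edgeR's quasi-likelihood p-values). Without the fold threshold 1 gene passed (0.00749% of the genes tested), and that was Col16a1. At an unadjusted p under 0.05 there were 641 genes (4.8%), 311 higher (2.33%) and 330 lower (2.47%) in GAL. DESeq2 with the same pairs called 0 genes and had 35 genes at an unadjusted p under 0.05. The libraries of GAL lay all above or all below those of CTL for 1111 genes (8.32%).

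Col16a1 encodes a chain of collagen XVI, a collagen that associates with other matrix fibrils (gene ENSRNOG00000031475, mRatBN7.2, chr5:142388426-142442825). Its raw counts were 1207, 859 and 1707 in CTL 1, 2 and 3 and 384, 801 and 1196 in GAL 1, 2 and 3. Scaled for library size, these were 205, 169 and 273 CPM in CTL and 148, 132 and 203 CPM in GAL. The level differed between numbers, with number 3 highest in both groups, so GAL 3 lay above CTL 2 and the groups overlapped. Within each pair GAL was below CTL, by log2 values of -0.48, -0.35 and -0.43. Col16a1 fell by 0.42 on the log2 scale (SE 0.062, adjusted p = 0.00138), with a 95% interval from -0.54 to -0.29, that is 0.687 to 0.817 of the CTL level. The call was lost without a replicate block (adjusted p = 1, edgeR) and in DESeq2 (adjusted p = 0.0656), where the log2 fold change was -0.42 in both, and without pair 1 (adjusted p = 0.711, log2 fold change -0.39). Of the 3 fits of all 12 libraries, the one with a replicate block within each background kept it (adjusted p = 0.000137, and 0.0255 without pair 1, edgeR). The other 2, with no block and with 1 block for the 4 groups, did not (adjusted p = 0.997 and 0.968, edgeR, log2 fold change -0.42 in each).

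The cytokine-treated cultures gave a second set of libraries for Col16a1, with none in common. Its level was 544, 510 and 485 CPM in CTK-2 and 452, 379 and 413 CPM in CTK2+GAL. All 3 libraries with galinex were below all 3 without it, and the share of all genes so separated in this background was not counted. The log2 fold change was -0.31 (SE 0.051, adjusted p = 0.00255, edgeR's quasi-likelihood test in the 12 libraries). That fit had the number as a block within each background. Same-numbered CTK-2 and CTK2+GAL libraries correlated at r = 0.11, 0.051 and -0.049, against -0.18 to 0.15 for different numbers. These values do not show pairing by number in the cytokine background. The difference between the backgrounds was 0.11 (SE 0.078, unadjusted p = 0.167 in the same fit), so a difference was not detected.

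Adam11 encodes a membrane protein of the ADAM family that is expressed in the nervous system (ENSRNOG00000002753, mRatBN7.2, chr10:87724234-87741562). Its level was 143, 129 and 121 CPM in CTL and 109, 101 and 101 CPM in GAL. All GAL libraries were below all CTL libraries. The log2 fold change was -0.33 (SE 0.067, adjusted p = 0.0985, edgeR), with a 95% interval from -0.47 to -0.19, so Adam11 did not pass. In the cytokine background its level was 37.6, 40.2 and 37.2 CPM in CTK-2 and 31.1, 30.5 and 31.0 CPM in CTK2+GAL. The log2 fold change there was -0.31 (SE 0.088, adjusted p = 0.519, edgeR), so Adam11 did not pass there either. The libraries did not overlap, and the share of all genes without overlap was not counted in that background.

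**Figure D1:**
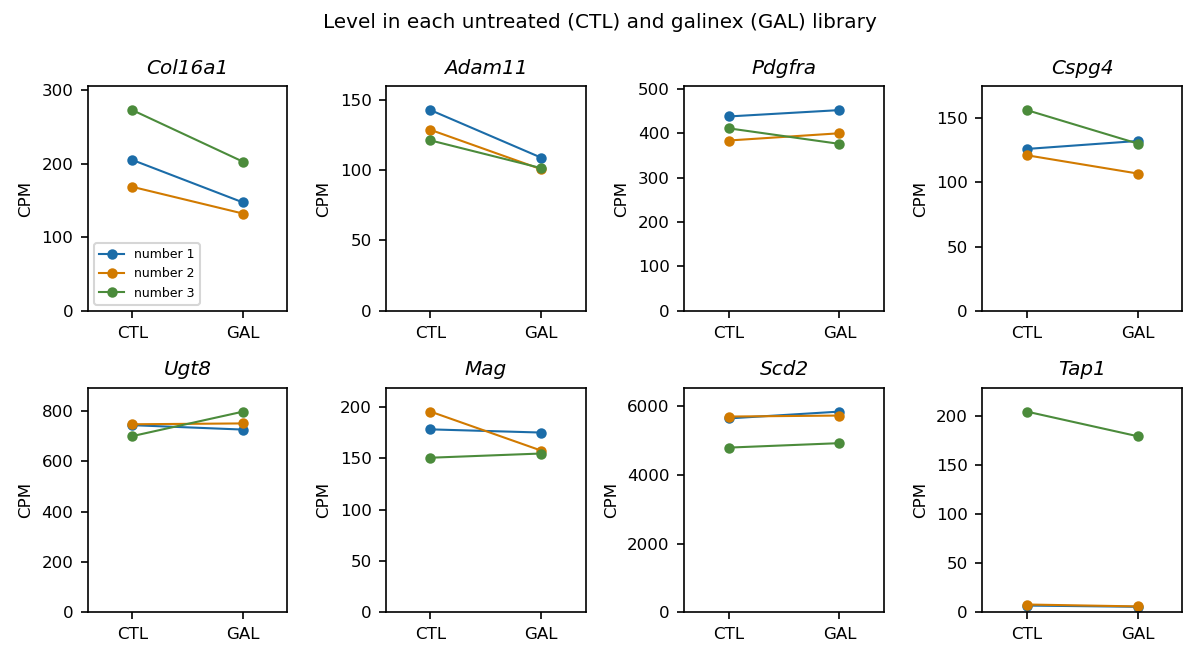
Level in CPM (linear axis from 0) of 8 genes in each CTL and GAL library, with a line joining libraries of the same number. Col16a1 and Adam11 go down in all 3 pairs, the lines of Pdgfra, Cspg4, Ugt8, Mag and Scd2 are close to level or differ between pairs, and Tap1 is high only in number 3 of both groups.

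Every other gene with a symbol had an adjusted p of at least 0.922 (edgeR). Among them the smallest p-values with a lower level in GAL belonged to Tle2, Celf3 and Slc8a3. Tle2, a corepressor of the Groucho family, was at 14.3, 10.4 and 16.0 CPM in CTL and 9.99, 7.60 and 8.65 CPM in GAL, a log2 fold change of -0.65 (SE 0.18). Celf3, an RNA-binding splicing regulator, was at 10.6, 14.7 and 14.4 CPM in CTL and 8.83, 9.09 and 8.48 CPM in GAL, a log2 fold change of -0.62 (SE 0.18). Slc8a3, a sodium-calcium exchanger, was at 34.7, 39.1 and 40.2 CPM in CTL and 30.7, 27.6 and 32.1 CPM in GAL, a log2 fold change of -0.35 (SE 0.11). In these 3 genes the libraries of the groups did not overlap, as in 8.32% of all genes tested, and the adjusted p was 0.922 for each (edgeR).

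On the higher side the smallest p belonged to Greb1l, a relative of the estrogen-regulated gene Greb1, at 7.32, 5.50 and 5.76 CPM in CTL and 11.5, 9.92 and 7.81 CPM in GAL. Its log2 fold change was 0.64 (SE 0.21, adjusted p = 0.95, edgeR), without overlap between the groups, and it overlaps another annotated gene on the same strand. Scn3b, a subunit of voltage-gated sodium channels, was at 22.0, 24.6 and 14.6 CPM in CTL and 35.3, 27.6 and 16.97 CPM in GAL, a log2 fold change of 0.35 (SE 0.13) with overlap. Fabp7, the brain fatty acid-binding protein of neural progenitors, was at 143, 161.5 and 162.3 CPM in CTL and 137.5, 188.5 and 205.6 CPM in GAL, a log2 fold change of 0.19 (SE 0.068, adjusted p = 0.991, edgeR). Number 1 did not share the direction. Snapc2, a subunit of the complex that starts transcription of small nuclear RNAs, was at 38.6, 36.4 and 35.7 CPM in CTL and 45.3, 42.0 and 45.3 CPM in GAL, a log2 fold change of 0.26 (SE 0.097). Pnlip, a lipase, was at 186, 207 and 195 CPM in CTL and 215, 230 and 214 CPM in GAL, a log2 fold change of 0.16 (SE 0.060). Snapc2 and Pnlip had no overlap between groups and did not pass the test (adjusted p = 0.991 for each, edgeR).

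The gene lists were read against all 13348 genes, whose median log2 fold change was -0.0014 and of which 4.8% had an unadjusted p under 0.05. Each list could be read only for its members with a symbol. The symbols came from the study's table of genes called between CTK-2 and CTL, so every gene named here had been called in that comparison, which uses the same CTL libraries, and GPR17 itself was not analysed here. No list member passed at an adjusted p of 0.05.

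The members of GPR17 signalling with a symbol were 5 of 34 listed, and none had an unadjusted p under 0.05. Grk5, a kinase that desensitizes G protein-coupled receptors, was at 34.5, 32.6 and 37.3 CPM in CTL and 24.2, 30.6 and 35.97 CPM in GAL. Its log2 fold change was -0.18, with a 95% interval from -0.40 to 0.05. Pde4b, which degrades cyclic AMP, had a log2 fold change of 0.10 with an interval from -0.03 to 0.23. Plcb1 and Plcb4, phospholipases C that act after G proteins, had log2 fold changes of -0.0030 and -0.12. Id2, an inhibitor of differentiation factors, had 0.09 with an interval from -0.06 to 0.24. The median of the list was -0.0030 on the log2 scale, and all 5 intervals lay within 0.59 on both sides. The wider lists of phosphatidylinositol signalling (10 of 60 with a symbol, median -0.04) and phospholipase D signalling (8 of 47, median -0.18) had 0 and 1 members at an unadjusted p under 0.05. That member was Dnm1, a dynamin of vesicle fission, at 40.5, 40.5 and 49.3 CPM in CTL and 39.9, 28.6 and 40.9 CPM in GAL, with a log2 fold change of -0.28 (SE 0.10). Of the 7 receptors near GPR17 with a symbol, Gpr37l1 was the most precisely measured, with a log2 fold change of 0.04 and an interval from -0.08 to 0.17. P2ry12 and P2ry13, purinergic receptors also found on microglia, were low, with 0 to 4.48 CPM in each library. P2ry12 had 7, 16 and 28 counts in CTL and 3, 11 and 18 in GAL, with a log2 fold change of -0.57 and a wide interval from -1.34 to 0.20.

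No OPC marker passed the test. Pdgfra, the receptor for platelet-derived growth factor that keeps OPCs dividing, was at 437, 383 and 411 CPM in CTL and 452, 400 and 376 CPM in GAL. The log2 fold change of Pdgfra was -0.0090 with an interval from -0.13 to 0.11. In these bulk cultures a smaller share of cells of a type and less RNA per cell cannot be told apart. Cspg4, which encodes the surface proteoglycan NG2, was at 126, 121 and 156 CPM in CTL and 132, 107 and 130 CPM in GAL. Cspg4 had a log2 fold change of -0.14 with an interval from -0.28 to 0.0020. Vcan and Ptprz1, which encode large proteoglycans of the matrix and the surface, were abundant, at 1587 to 1891 CPM, and their intervals reached no further than 0.12 on the log2 scale. Of the 7 members tested, 1 had an unadjusted p under 0.05. The list's median was 0.0010, and all 7 intervals lay within 0.59 on both sides.

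The myelin genes with a symbol were 8 of 24 listed, and Mbp was not among them. None of the 8 tested had an unadjusted p under 0.05. There were 5 members above and 3 below 0, with a median log2 fold change of 0.0080. Mag, a glycoprotein of the inner myelin layer, was at 178, 195.5 and 151 CPM in CTL and 175, 157.5 and 155 CPM in GAL, with a log2 fold change of -0.10 and an interval from -0.24 to 0.03. Mog, a late surface protein of myelin, was low in all 6 libraries. It was at 5.79, 6.68 and 5.76 CPM in CTL and 6.91, 6.78 and 6.79 CPM in GAL. The interval of Mog reached from -0.31 to 0.63 and was the only one of the 8 to pass 0.59. The enzymes Ugt8 and Fa2h, which make the glycolipids of myelin, had log2 fold changes of 0.06 and 0.01. Over the pairs, the median of the list was -0.03, -0.04 and 0.10.

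Of the 9 lineage transcription factors, 0 had an unadjusted p under 0.05. Their log2 fold changes were mostly below 0, with 2 above and 7 below and a median of -0.08, and the medians within the pairs were 0.02, -0.04 and -0.08. Sox11, a factor of immature cells, was at 39.3, 44.0 and 37.9 CPM in CTL and 35.3, 35.9 and 35.5 CPM in GAL, without overlap. Its log2 fold change was -0.18 with an interval from -0.39 to 0.02. Nkx2-2 and Chn2, the pre-myelinating markers with a symbol, had intervals from -0.20 to 0.04 and from -0.10 to 0.14. Sox8, a factor of the oligodendrocyte lineage, and Zeb2, which promotes maturation, were at 960 to 1165 CPM and had log2 fold changes of -0.04 and 0.06.

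Cholesterol synthesis was the most completely covered pathway, with 21 of 25 listed genes, and none had an unadjusted p under 0.05. Its members were small but mostly of one sign, 18 above and 3 below 0, with a median log2 fold change of 0.05. The medians within the pairs were 0.06, 0.03 and 0.08 (mean 0.06 ± 0.026, SD, n = 3). These genes share libraries and are not independent, and the sign was not tested. Nsdhl, a late enzyme of the pathway, had the largest value, 0.14, with an interval from -0.0060 to 0.29. Lss, which closes the sterol rings, was at 324, 313 and 322 CPM in CTL and 306, 308 and 312 CPM in GAL, with a log2 fold change of -0.05. The intervals of the 21 genes together ran from -0.17 to 0.34, so each lay within the 1.5-fold threshold. Within the cytokine background the median of the same genes was 0.02.

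Of the 11 fatty acid genes, 0 had an unadjusted p under 0.05 and the median log2 fold change was 0.03. Scd2, an abundant fatty acid desaturase, was at 5637, 5691 and 4789 CPM in CTL and 5835, 5720 and 4918 CPM in GAL. GAL was higher within each pair, and number 3 was lowest in both groups. The log2 fold change of Scd2 was 0.03 with an interval from -0.07 to 0.13, that is 0.955 to 1.10 of the CTL level. Acly, which supplies acetyl-CoA, had 0.03, and Fads2, a fatty acid desaturase, -0.06. The 6 genes of serine and asparagine synthesis had a median of 0.05, with Asns, asparagine synthetase, at 62.0, 61.7 and 55.4 CPM in CTL and 67.98, 64.1 and 64.3 CPM in GAL. Asns did not overlap between groups, and its interval ran from -0.03 to 0.30.

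**Figure D2:**
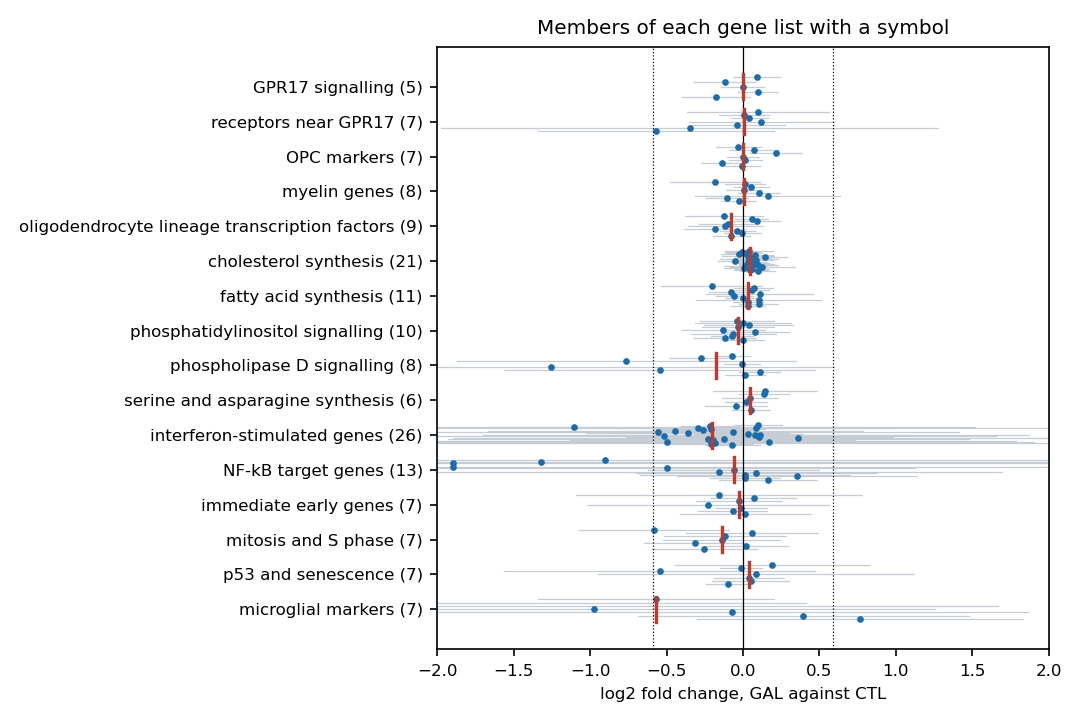
Log2 fold change of GAL against CTL (x axis) for the members of the 16 gene lists with at least 5 tested members (number in brackets), with each member as a point, its 95% interval as a grey line and the list's median as a red bar. Dotted lines stand at 0.59 on both sides, lines and points beyond 2 are not drawn, and the lists of lipid, myelin and OPC genes are narrow while those of interferon, NF-kB and microglial genes are wide.

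Interferon-stimulated genes were high in number 3 of both groups. B2m, the light chain of MHC class I, was at 21.3, 26.7 and 782 CPM in CTL and 22.7, 31.7 and 812 CPM in GAL, with a log2 fold change of 0.10 and an interval from -0.05 to 0.26. Tap1, which carries peptides to MHC class I, was at 6.98, 8.06 and 205 CPM in CTL and 5.76, 6.12 and 180 CPM in GAL. Tap1 was the 1 interferon-stimulated gene of 26 with an unadjusted p under 0.05, with a log2 fold change of -0.21 (SE 0.096, adjusted p = 0.991, edgeR). Irf1, a transcription factor induced by interferon, was at 4.94, 2.95 and 76.0 CPM in CTL and 4.61, 2.98 and 64.5 CPM in GAL. What set number 3 apart was not tested. The median of the list was -0.20 on the log2 scale, and 11 of its 26 intervals lay within 2-fold, since most of its genes had few or no counts in numbers 1 and 2. The NF-kB targets Nfkb1 and Nfkbia had log2 fold changes of 0.01 and 0.16 with intervals from -0.22 to 0.24 and from -0.16 to 0.48. The chemokine genes Ccl2 and Ccl5 had at most 1 count in each of the 6 libraries, so a decrease was not detectable at this depth. With cytokines, Ccl2 was at 17.4, 15.1 and 15.0 CPM in CTK-2, and no rise of that size was seen in GAL.

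The cell cycle genes had lower totals in GAL within each pair, at 106, 88.0 and 69.5 CPM in CTL and 84.9, 80.3 and 66.3 CPM in GAL over 7 genes, and the groups overlapped. Kif20b, a kinesin of cell division, was the 1 of 7 with an unadjusted p under 0.05. Its level was 10.2, 9.63 and 7.04 CPM in CTL and 4.61, 4.63 and 7.80 CPM in GAL, so number 3 went the other way (log2 fold change -0.58, SE 0.24, adjusted p = 0.991, edgeR). Cdk1, the kinase of entry into mitosis, had a log2 fold change of -0.32 with an interval from -0.65 to 0.02. The immediate early genes (7 tested, median -0.03) and the p53 and senescence genes (7 tested, median 0.04) had 0 members at an unadjusted p under 0.05. Cdkn1a, the cell cycle inhibitor p21, had a log2 fold change of 0.05 with an interval from -0.20 to 0.30. The astrocyte markers Aldoc, Sox9 and Fgfr3 and the neuron markers Tubb3 and Elavl4 also had 0 members at that p, with list medians of -0.0050 and -0.0080. The respiratory chain subunits Atp5f1b and Cox6c had 0.04 and 0.01, the 3 endoplasmic reticulum genes a median of 0.06, and Thrb, a thyroid hormone receptor, 0.12. The fibroblast and vessel markers Col1a2 and Kdr stayed at or under 1.92 CPM in each library. Ribosomal proteins, proteasome subunits, genes of the mitochondrial chromosome and the reference gene had no member with a symbol. By position, 18 genes of the mitochondrial chromosome were tested, with a median log2 fold change of 0.02 and 17 intervals within 0.59. Their medians within pairs 1, 2 and 3 were -0.14, -0.04 and 0.34.

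The size of change that the intervals excluded depended on the level of the gene. The intervals do not give the size that would pass after adjustment over all genes. Tle2, for example, did not pass at a log2 fold change of -0.65 (adjusted p = 0.922, edgeR). The median half-width of the 95% interval was 0.25 on the log2 scale, and the interval of 9515 genes (71.3%) lay within 0.59 on both sides. For 11315 genes (84.8%) it lay within 2-fold, and for 6083 genes within 1.25-fold. Of the 3534 genes with a mean count between 100 and 300, 99.2% lay within the 1.5-fold threshold, with a median half-width of 0.22. Of the 1431 genes with a mean count under 10, 0% did, and their median half-width was 1.18. When the interval was widened so that all genes were covered at once at 95%, 8170 genes (61.2%) still lay within 2-fold and 4562 within 1.5-fold. The intervals share information on the spread across genes (31.1 prior degrees of freedom, against 2 from the 3 pairs of each gene), and 19 genes had no finite interval. With DESeq2 the median half-width was 0.42 and 7477 genes lay within 0.59. Without number 3 the half-width was 0.32 and 8281 genes lay within 0.59.

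**Figure D3:**
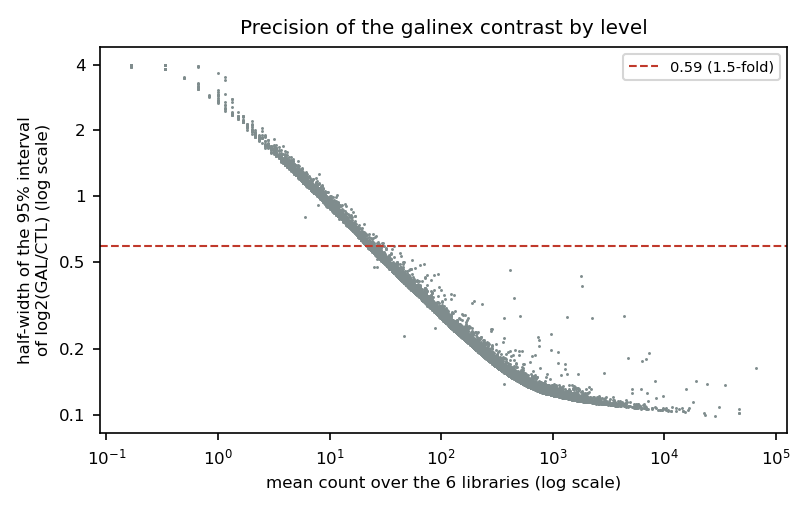
Half-width of the 95% interval of the log2 fold change (log axis, values over 4 drawn at 4) against the mean count over the 6 libraries (log axis), with 1 point per gene. The half-width falls with the count and lies under the 1.5-fold line (0.59) for most genes above a mean count of 30.

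Cytokines served as a yardstick, in a separate fit of CTK-2 and CTL with the number as a block. Whether CTK-2 and CTL libraries pair by number was not checked. CTK-2 against CTL, which shares the CTL libraries, called 2217 genes (16.6%), 1491 higher and 726 lower, at the thresholds under which galinex called 0. Across the 9642 genes that averaged 50 counts or more, the SD of the fitted log2 fold changes was 0.80 for CTK-2 against CTL and 0.13 for GAL against CTL. Mag had a log2 fold change of -1.12 in CTK-2 against CTL and -0.10 in GAL against CTL, and Scd2 had -0.97 and 0.03. Cspg4 had 2.01 and -0.14. The symbols were chosen for their difference in CTK-2, so these sizes are a description.

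The changes in the 3 pairs were not alike across genes. For the 9642 genes, the log2 fold changes of 2 pairs correlated at r = -0.038, -0.014 and 0.018, with SDs of 0.26, 0.22 and 0.19 in pairs 1, 2 and 3. Genes are not independent replicates, and these values only describe the libraries. Of all tested genes, 3402 (25.5%) had the same sign in the 3 pairs, 1631 higher and 1771 lower in GAL. The spread of pair 1 was widest, and GAL 1 had the fewest counts. Across the same genes the fitted galinex changes without and with cytokines, which share no library, correlated at r = 0.15.

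Short genes differed most between pairs. Genes with an exonic length under 500 bases and an average of 50 counts or more in the 6 libraries (126 genes, of which 4 had a symbol) had SDs of 0.89, 0.47 and 0.27 in pairs 1, 2 and 3, against 0.22, 0.19 and 0.17 for the 8928 genes of 1000 bases or more. Their median log2 fold change was -0.07 in pair 1, -0.38 in pair 2 and 0.17 in pair 3. At an unadjusted p under 0.05, 33 of these 126 genes were lower and 3 higher in GAL. Of the 8928 genes of 1000 bases or more, 225 were lower and 235 higher at that p. Over all genes tested, 2.47% were lower and 2.33% higher. The length split was chosen after these values were seen. The unnamed gene ENSRNOG00000054045 (272 bases of exon, mRatBN7.2, chr11:66562821-66563092) was an example, with 171, 417 and 291 counts in CTL and 10, 249 and 250 counts in GAL. Its log2 fold change was -0.79 (SE 0.16, adjusted p = 0.0985, edgeR). ENSRNOG00000059449 (301 bases of exon, chr10:57204377-57204677) was at 1347, 2108 and 1290 CPM in CTL and 1044, 1068 and 1381 CPM in GAL, a log2 fold change of -0.42 (SE 0.094, adjusted p = 0.221, edgeR), and went the other way in number 3. The 2 unnamed genes with the smallest p on the higher side were longer. ENSRNOG00000063197 was at 85.8, 91.0 and 72.7 CPM in CTL and 103, 99.5 and 100.1 CPM in GAL, a log2 fold change of 0.29 (adjusted p = 0.697, edgeR), and ENSRNOG00000042503 had 0.26 (adjusted p = 0.922, edgeR).

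**Figure D4:**
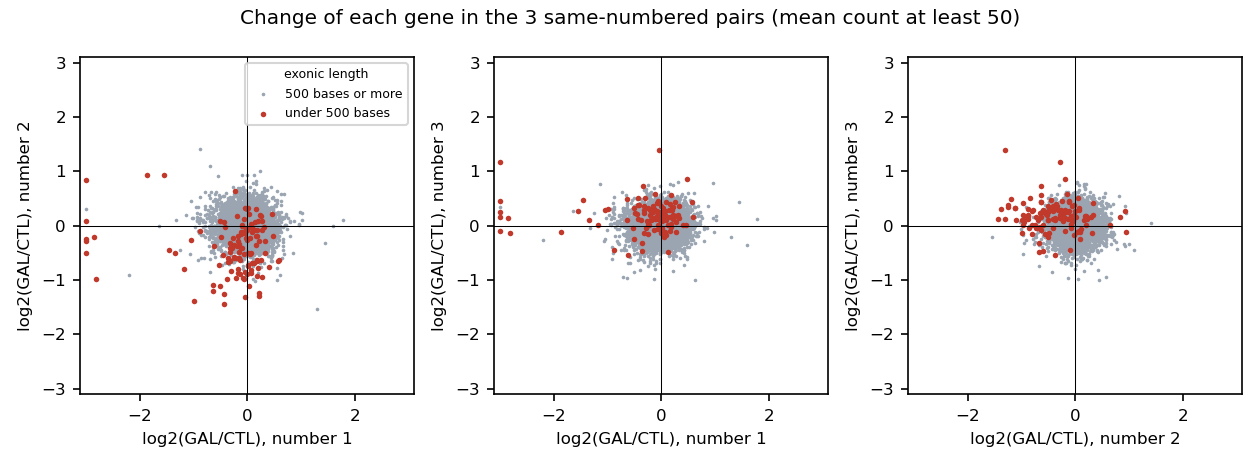
Log2 ratio of GAL to CTL of each gene in 1 pair against another, for genes that averaged 50 counts or more in the 6 libraries, with those under 500 bases of exon in red and values beyond 3 drawn at 3. The grey cloud is round in each panel, while many red points lie low in pairs 1 and 2 and few in pair 3.

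The count of called genes depended on which pairs were used, and most genes called without pair 2 or pair 3 were short. Without pair 2 there were 12 genes at an adjusted p of at most 0.05, 7 higher and 5 lower in GAL, and 5 of the 12 also passed the fold threshold (edgeR). Of these 12 genes, 7 were under 500 bases, against 494 of all 13348 genes tested. Without pair 3 there were 37 genes at an adjusted p of at most 0.05, all lower in GAL, and 18 of them also passed the fold threshold (edgeR). Of the 37, 30 were under 500 bases, and of the 18, 17. With the genes of at least 500 bases alone, the count without pair 3 was 3 with 1 past the fold threshold, and with all 3 pairs it was 2 with 0. Those 2 genes were Col16a1 and Adam11 (adjusted p = 2.39e-05 and 0.0400, edgeR). Without pair 1 neither passed in this set (adjusted p = 0.107 for Col16a1 and 0.736 for Adam11, edgeR). ENSRNOG00000065968 (under 500 bases of exon) was called in both directions, at a log2 fold change of 0.75 without pair 2 and -0.71 without pair 3, and had 0.04 with all 3 pairs. In the fits without pair 2 and without pair 3 the prior degrees of freedom were infinite, so each gene's spread was taken from the trend over all genes. What the short genes and the pairs have in common was not tested.

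The galinex effect was also compared between the backgrounds with and without cytokines, in all 12 libraries, with the number as a block within each background. Pairing by number was not seen in the cytokine background, as given above for Col16a1. At an adjusted p of at most 0.05, 0 genes differed (smallest adjusted p 0.0977, edgeR), with 487 genes (3.65%) at an unadjusted p under 0.05. Syndig1, a protein of synapses, and Id1 were among the named genes with the smallest p. For Id1, an inhibitor of differentiation factors, the log2 fold change was -0.10 without and 0.38 with cytokines, a difference of 0.48 (SE 0.15). For Syndig1 it was -0.39 and 0.54, a difference of 0.93 (SE 0.29).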

How the data were processed

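The authors deposited whole-number counts of read pairs per gene, neither normalized nor filtered, for 12 libraries. Per the labels, FastQC and STAR were used upstream. The headers name featureCounts 2.0.0 and the Ensembl 112 genes of mRatBN7.2, counted as reversely stranded pairs, without pairs that map to several places. Near-identical and overlapping genes can therefore lose counts. Versions of the aligner are not given in the sources used here.

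Genes that averaged 5 counts or more across the 12 libraries (13348) were normalized by TMM and fitted in R 4.3.3 with edgeR 4.0.16 (quasi-likelihood) on the 3 CTL and 3 GAL libraries, with the replicate number as a block. Every same-numbered pair of CTL and GAL correlated above 0.1 (0.49, 0.53 and 0.83), and the study names no pairing. CTL 1 with GAL 2 also reached 0.53, and CTL 2 with GAL 1 reached 0.36. These values therefore cannot show that numbers 1 and 2 are paired. Benjamini-Hochberg adjustment ran over all genes tested. A standard error is the absolute log2 fold change over the square root of F, and the 95% interval is from the t distribution. The fit was tested on simulated data with the number effect built in, so this test cannot show whether the pairing holds. Within a group, replicate pairs differed by 1.59 to 7.09 times the variance that counting alone gives, so no library was a copy of another.

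Symbols came from a numeric match of the study's table of genes called between CTK-2 and CTL to the counts (1783 of 1786 entries). The gene lists and the comparison were chosen with earlier results of these data known. Named genes were the study's marker genes, the 5 smallest p-values and 5 largest changes in each direction, the members of each list with the smallest p or the narrowest interval, and the 3 smallest p-values of the difference between backgrounds, and the text describes a part of them. Other list members were named for their role after their values were seen. The alternatives were other blocks and library sets, DESeq2 1.42.0, limma-voom (limma 3.58.1), other scalings and filters, and libraries left out. No sequence was printed, because the values are gene counts. Some genes are not reported here.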

Additional observations from a re-analysis of the deposited data

How the results depend on the processing

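The number of genes called with the fold threshold was 0 in the paired fit and 2 with total counts in place of TMM or without a filter on low counts, and it ran from 0 to 18 when a pair or a library was left out. The number at an adjusted p of at most 0.05 was 1, and it was 0 without a replicate block, with 12 libraries and no replicate block, with 1 replicate block for the 4 groups and in DESeq2, 2 with 12 libraries and a replicate block within each background, 7 with total counts, 17 without a filter and 2 for genes of at least 500 bases. It ran from 0 to 37 when a pair or library was left out. The count at an unadjusted p under 0.05 was 641, against 361 without a replicate block and 35 in DESeq2, and ran from 223 (without GAL 2) to 979 with libraries left out. The median half-width was 0.248, against 0.417 in DESeq2 and 0.404 without a filter. It ran from 0.276 to 0.327 with libraries left out. The number of genes with an interval within 0.59 stayed within 1.5 times of 9515 in every setting, from 7477 (DESeq2) to 9779 (no filter). For the difference between backgrounds the count was 0 in each setting except without number 3, where it was 15, so it ran from 0 to 15. Leaving out the replicate block moved no named gene other than Col16a1 across an adjusted p of 0.05. The fits that left out a pair from the 12 libraries and those on genes of at least 500 bases were chosen after seeing the data. Single libraries were left out without a replicate block. GAL 1, with 2600797 counts, set the depth limit of pair 1.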
